A study of Mus musculus with 41 samples.

Results

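The genes described here are 32 genes of sterol and fatty acid synthesis and of the SREBP system that controls them, measured in cerebellar microglia of mice with Niemann-Pick type C disease (NPC) and of wild-type (WT) mice. They were taken by symbol from the deposited normalized count table, and all 32 were found among its 24015 genes. The set holds 17 enzymes of the sterol pathway, the sterol carrier Stard4, 5 genes of the SREBP system and 9 enzymes of fatty acid synthesis and desaturation. Other genes of the same pathways are given by name where they were called.

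The NPC mice were of the strain BALB/cNctr-Npc1m1N/J, which carries a mutated Npc1 gene in all of its cells, and the WT mice were balb/c. Untreated mice of both kinds were taken at ages of 1, 3, 6 and 9 weeks, and each of these 8 groups holds 4 libraries except NPC at 9 weeks, which holds 3. A treatment arm adds 5 libraries from PLX5622-treated and 5 from control NPC mice, all 9 weeks old. PLX5622 blocks Csf1r, a receptor that microglia need to survive, and its dose and the length of treatment are not given in the sources used here. Each library came from about 20000 cells sorted on CD11b and Tmem119, so the treated group holds the microglia that the treated mice still had.

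Cells make cholesterol from acetyl-CoA through mevalonate, squalene and lanosterol. SREBP proteins sit in the endoplasmic reticulum with Scap and are held there by Insig proteins while sterols are plentiful. When sterols in that membrane fall, Scap carries SREBP to the Golgi, where proteases release a fragment that enters the nucleus and switches on these genes. SREBP2, from Srebf2, acts mainly on sterol genes, and SREBP1, from Srebf1, mainly on fatty acid genes. In NPC cells cholesterol taken up from outside is trapped in lysosomes, short of the membrane in which sterols are sensed.

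The promoters of Srebf2, Insig1 and Cyp51 are shown because these genes carry the results on genotype and treatment, and that of Hmgcs1 because it is the only one of the set with the full form of the sterol regulatory element searched for. Each is the 250 bases before the RefSeq gene start in build GRCm38.p6, printed on the gene's own strand. Capitals mark matches on either strand to TCACNCCAC (the sterol regulatory element), its looser form TCACNNCA, the E-box CACGTG and the CCAAT box.
Srebf2 promoter, chr15:82147019-82147268, plus strand: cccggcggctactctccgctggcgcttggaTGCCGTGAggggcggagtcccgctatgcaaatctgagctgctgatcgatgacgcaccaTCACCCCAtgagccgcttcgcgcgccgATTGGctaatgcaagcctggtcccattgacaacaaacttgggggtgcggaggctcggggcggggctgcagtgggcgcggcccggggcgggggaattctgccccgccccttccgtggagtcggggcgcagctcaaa
Insig1 promoter, chr5:28071162-28071411, plus strand: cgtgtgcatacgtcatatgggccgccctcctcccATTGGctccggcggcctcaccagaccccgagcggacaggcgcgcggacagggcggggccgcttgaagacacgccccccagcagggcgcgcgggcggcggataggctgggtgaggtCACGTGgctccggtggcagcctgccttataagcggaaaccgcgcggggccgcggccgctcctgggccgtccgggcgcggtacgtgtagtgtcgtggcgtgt
Cyp51 promoter, chr5:4104698-4104947, minus strand: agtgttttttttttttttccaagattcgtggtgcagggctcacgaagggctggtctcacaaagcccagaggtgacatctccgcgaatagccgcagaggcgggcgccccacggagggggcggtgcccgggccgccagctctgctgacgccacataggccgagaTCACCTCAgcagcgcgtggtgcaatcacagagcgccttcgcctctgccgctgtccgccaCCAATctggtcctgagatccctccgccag
Hmgcs1 promoter, chr13:119690101-119690350, plus strand: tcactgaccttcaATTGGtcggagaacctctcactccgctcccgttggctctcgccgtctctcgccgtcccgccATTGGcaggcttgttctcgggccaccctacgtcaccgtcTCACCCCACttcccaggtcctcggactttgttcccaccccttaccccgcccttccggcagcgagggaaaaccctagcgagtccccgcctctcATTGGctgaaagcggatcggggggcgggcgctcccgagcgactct

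Promoter entries were found for 25 of the 32 genes. The full element TCACNCCAC was present in 1 of the 25, in Hmgcs1, and in 1.225% of the promoters of all 27025 genes. CACGTG was present in 5 of 25 (Hsd17b7, Sc5d, Dhcr7, Scap and Insig1), against 6.86% of all genes. The looser TCACNNCA, which was chosen after the sequences were seen and overlaps every full match, was present in 8 of 25 against 12.98%. CCAAT was present in 19 of 25 against 37.49%, and the GC box GGGCGG, not in capitals above, in 21 of 25 against 35.36%. Of the 17492 protein-coding genes alone, 45.79% held the GC box and 39.48% CCAAT. Among these genes 12.05% held the looser element, 7.609% CACGTG and 1.201% the full element. Both strands were searched, and a match is a description of the letters only. Among the 6 genes described first below, Sqle had no promoter entry, Srebf2, Pmvk and Dhcr7 held the looser element, and Insig1 and Dhcr7 held CACGTG. In the promoters printed, the matches of Srebf2 to the looser element lay 162 and 220 bases before its start and CACGTG of Insig1 101 bases before its start.

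Recovered reads per library numbered 23.2 to 40.5 M (median 30.6 M) in the 40 libraries for which they could be recovered. Npc1 checked the labels, with 291 to 787 normalized counts in the NPC libraries of both arms, against 2606 to 7386 in WT libraries. The sort was checked with 8 microglial markers, of which Tmem119 lay between 52430.3 and 318571 and Itgam between 18335 and 68549, with no library at 0. Some libraries stood apart. NPC 3w replicate C was low in several fatty acid genes. It was the highest NPC 3w library in Sc5d (919), Insig1 (1007), Stard4 (140), Pmvk (534) and Dhcr7 (2387), and the lowest in Mvd (736). It also had the fewest genes above 0 (12879) and the largest normalized total (37.2 M) of all libraries. NPC 6w replicates B and C had the highest sums of astrocyte markers (16277 and 15717). Their sums of oligodendrocyte markers were also high (19864 and 17169, with 17608 in NPC 9w replicate A). PLX5622 replicate 3 held 116245 in summed monocyte and neutrophil markers, against 717 to 8173 in the other PLX5622 libraries and 357 to 6534 in control libraries. Levels below are normalized counts, which are not divided by gene length and so compare libraries, not genes. Changes are differences on the log2(normalized count + 1) scale with their standard errors (SE), tested with limma over all genes and called at an adjusted p under 0.05. The series counts mice as its replicates.

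**Figure D1:**
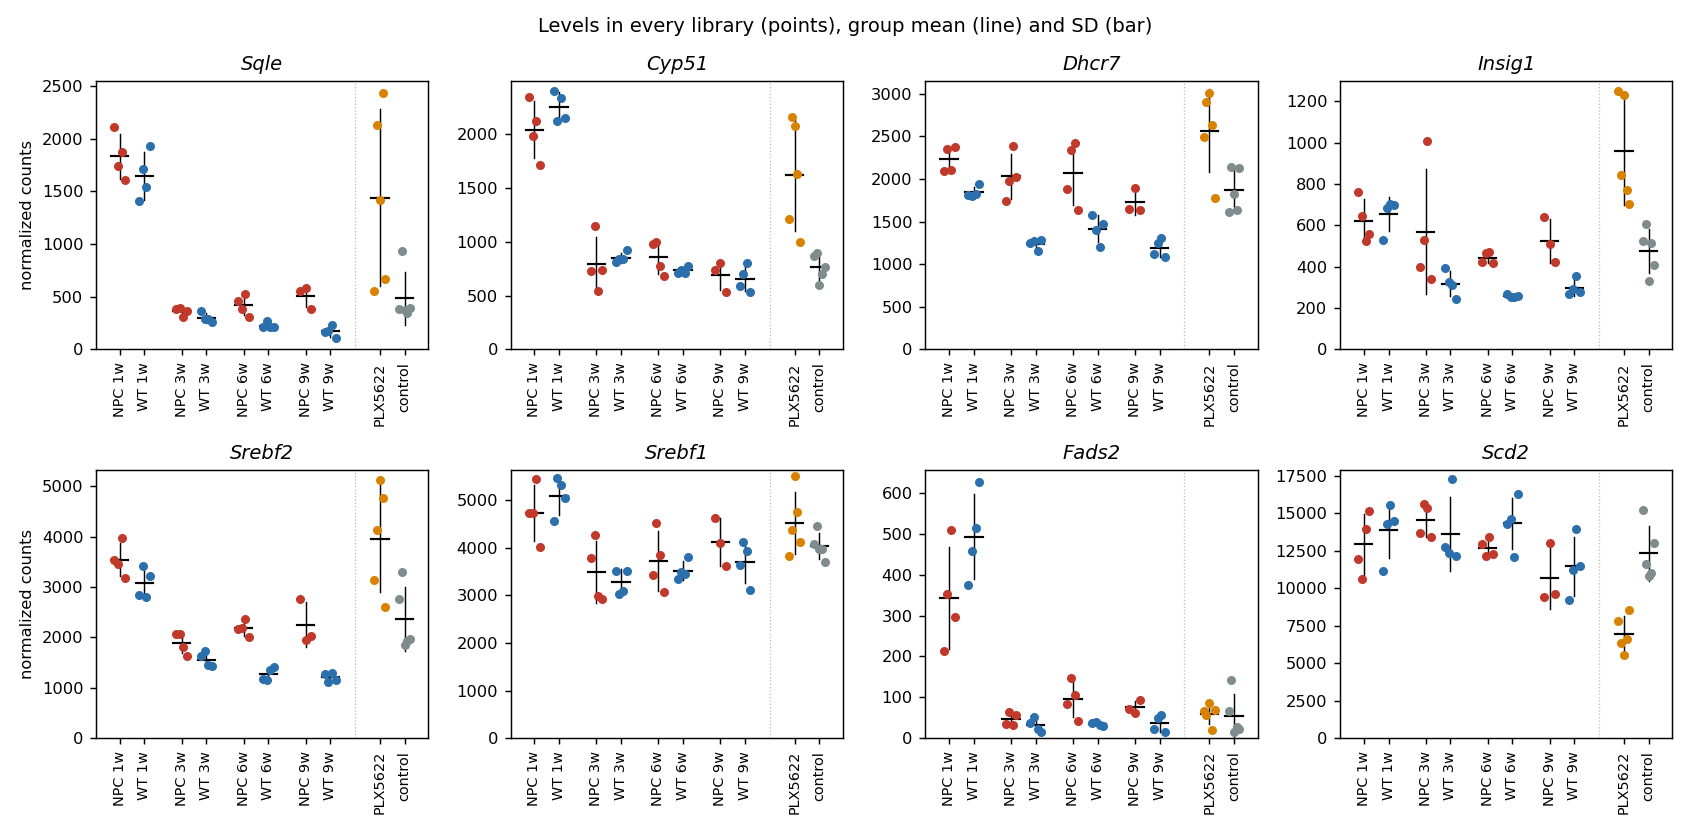
Normalized counts of 8 members in every library (points) by group, with the group mean (horizontal line) and SD (vertical bar); each panel is 1 gene with its own axis. Sqle shows 1607 to 2110.3 in NPC mice at 1 week and 106 to 236 in WT mice at 9 weeks.

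The first question was how NPC microglia differed from WT microglia at each age. Of the 17 sterol enzymes, 4 to 6 were called higher in NPC mice at 3, 6 and 9 weeks, Srebf2 was called higher at 6 and 9 weeks, and few fatty acid enzymes were called, in either direction. At 1 week 0 of the 32 genes were called in either direction, against 0.876% called higher and 0.577% called lower of the 14046 genes tested. At an unadjusted p under 0.05 there were 2 (Dhcr7 and Insig2), against 1642 of the 14046 genes. For the 32 genes edgeR and DESeq2 also called 0. At 3 weeks 6 were higher and 0 lower, against 14.3% and 12.6% of all genes (26.9% in either direction), so the share called there was close to that of all genes. With NPC 3w replicate C left out, 3 were higher at 3 weeks, and likewise with WT 3w replicate A left out. At 6 weeks 7 were higher and 1 lower, against 8.76% and 6.5%, and at 9 weeks 8 were higher and 1 lower, against 11.2% and 7.77%. Averaged over the 4 ages, 13 were higher and 3 lower, against 22.2% and 21.1% (43.3% in either direction). In bulk libraries fewer cells of a type and less RNA per cell cannot be told apart.

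The sterol enzymes and the fatty acid enzymes differed in their counts. Of 17 sterol enzymes, 4 were higher at 3 weeks, 4 at 6 weeks, 6 at 9 weeks and 8 on average in limma. In these comparisons 0 were lower by limma, edgeR or DESeq2, and 0 were lower at an unadjusted p under 0.05. Rescaling to the same total called 1 lower at 9 weeks and 1 on average. Their median log2 change was 0.28 at 3 weeks, 0.24 at 6 weeks and 0.28 at 9 weeks, where that of all genes was -0.04, -0.02 and 0.03. Of 9 fatty acid enzymes, 0 were higher at 3 weeks in limma, edgeR and DESeq2 (1, Scd1, at an unadjusted p under 0.05), 1 at 6 weeks (Fads2), 0 at 9 weeks (1 in edgeR and DESeq2, and Fads2 at an unadjusted p under 0.05) and 2 on average (Fads2 and Scd1), while Fads1 was lower at 9 weeks and on average. Their median log2 change was 0.05, 0.12 and 0.15 at 3, 6 and 9 weeks.

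**Figure D2:**
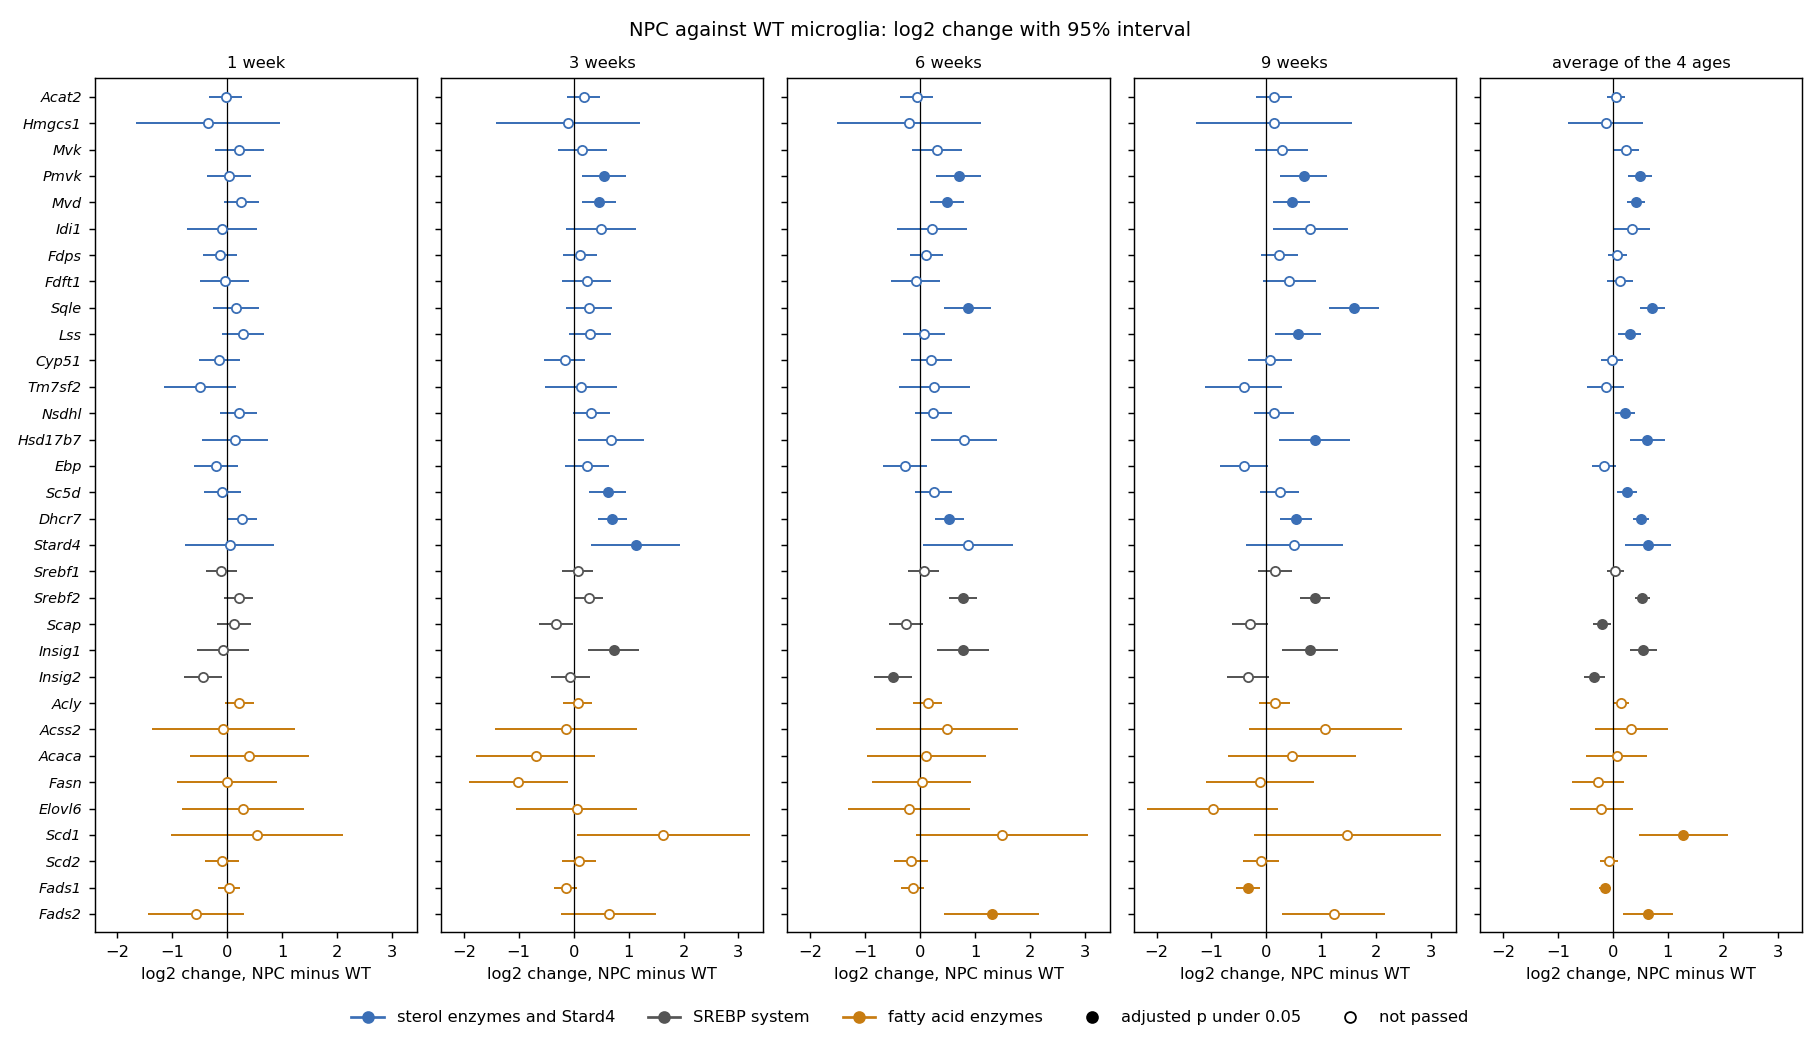
Log2 change of each of the 32 genes in NPC minus WT mice at 1, 3, 6 and 9 weeks and on average over these ages, with 95% intervals; filled points passed an adjusted p under 0.05. The sterol enzymes lie mostly to the right of 0 from 3 weeks on, up to 1.59 for Sqle at 9 weeks, and the fatty acid enzymes lie on both sides.

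Sqle makes squalene epoxide from squalene. It held 2110.3, 1736, 1869 and 1607 normalized counts in NPC mice at 1 week, against 1409, 1710.0, 1537 and 1929 in WT mice. The libraries overlapped, and the change was not called. At 3 weeks the values were 383, 391, 305 and 361 in NPC mice, against 366, 287, 286 and 256 in WT mice, again with overlap (log2 change 0.28, adjusted p = 0.301). By 6 weeks all NPC libraries were above all WT libraries, with 456, 383, 530.0 and 309 in NPC mice against 212, 266, 213 and 214 in WT mice, a log2 change of 0.87 ± 0.20 (SE, adjusted p = 0.00258). At 9 weeks the groups were further apart, with 555, 579 and 384 in NPC mice against 169.7, 171, 236 and 106 in WT mice. That was a 3.02-fold difference (95% interval 2.23 to 4.09, limma adjusted p = 2.2e-06). Sqle was also the 1 member whose genotype effect differed between 9 and 3 weeks, by 1.32 ± 0.29 on the log2 scale (adjusted p = 0.0333), where 0.263% of all genes had a larger effect at 9 weeks by this test and 0.192% a smaller one. That last call ended without any of 7 libraries (NPC 9w A or B, WT 3w A, B or C, WT 9w B or D), at adjusted p between 0.0505 and 0.130.

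Srebf2 encodes SREBP2, the main activator of the sterol genes, and is also a target of its own product. NPC mice held 3539.5, 3463, 3980.2 and 3181 normalized counts at 1 week, against 2848, 3422, 2811 and 3219 in WT mice, with overlap. At 3 weeks NPC mice held 2059.9, 2061, 1806 and 1633, against 1633, 1719.9, 1448 and 1429 in WT mice, and the groups still overlapped (log2 change 0.28, adjusted p = 0.0769). No overlap remained at 6 weeks, where the values were 2173, 2190.2, 2366 and 1999.9 in NPC mice, against 1169, 1148, 1348 and 1402 in WT mice. The log2 change there was 0.79 ± 0.12 (SE, limma adjusted p = 1.44e-05). NPC mice at 9 weeks held 2761, 1947 and 2033, against 1276, 1117, 1283 and 1149 in WT mice, with the lowest NPC library above the highest WT library, a log2 change of 0.88 ± 0.13 (adjusted p = 6.81e-06). The genotype effect was 0.61 larger on the log2 scale at 9 than at 3 weeks, which was not called (adjusted p = 0.122). Sqle and Srebf2 were the members still called at 6 and 9 weeks when the astrocyte marker score was a covariate. That score is the mean log2(normalized count + 1) over the 13 astrocyte and Bergmann glia markers, not their sum.

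Dhcr7 carries out the last reduction to cholesterol. It was the member with the smallest adjusted p at 3 weeks, with 1738, 1975, 2387 and 2019.8 normalized counts in NPC mice, against 1254, 1269, 1159 and 1279.7 in WT mice. Every NPC library was above every WT library, and the change was 1.63-fold (95% interval 1.37 to 1.93, limma adjusted p = 0.000109). At 1 week the values were 2090.3, 2354, 2106 and 2379.8 in NPC mice, against 1815, 1801, 1819 and 1937 in WT mice. The groups did not overlap there either, but the log2 change of 0.27 was not called (adjusted p = 0.341). At 6 weeks 1882, 2343, 2419.6 and 1631 in NPC mice stood against 1579, 1401, 1207 and 1477 in WT mice, a log2 change of 0.53 ± 0.12 (adjusted p = 0.0022). The 9-week values were 1647, 1899 and 1639.8 in NPC mice, against 1124, 1248, 1307 and 1081 in WT mice, again with no overlap (log2 change 0.54 ± 0.13, adjusted p = 0.00329). Dhcr7 was called in every fit that left out 1 library at 3, 6 and 9 weeks, and it was the 1 member still called at 3 weeks in a fit of the 3-week libraries alone.

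Insig1 holds the SREBP-Scap complex in the endoplasmic reticulum and is itself a target of SREBP. At 3 weeks it held 401, 529, 1007 and 343 normalized counts in NPC mice, against 394, 327, 313 and 242 in WT mice. The highest value was that of NPC 3w replicate C and the groups overlapped, with a log2 change of 0.73 ± 0.22 (SE, limma adjusted p = 0.0176). Without NPC 3w replicate C the change was 0.41 (adjusted p = 0.124), and the call also ended without WT 3w replicate D (adjusted p = 0.0608). At 6 weeks the WT libraries were close together, with 421, 464, 470.0 and 419.9 in NPC mice against 267, 256, 252 and 257 in WT mice, and the groups did not overlap (0.78 ± 0.22, adjusted p = 0.0148). The values at 9 weeks were 638, 511 and 423 in NPC mice, against 268, 292, 357 and 279 in WT mice (0.80 ± 0.24, adjusted p = 0.018), with an adjusted p of 0.128 without NPC 9w replicate A. At 1 week 761, 646, 524 and 559 in NPC mice overlapped with 531, 686, 703 and 699 in WT mice. Insig2, the second Insig gene, did not follow it: at 6 weeks it held 1701, 1861, 1905 and 1722 in NPC mice, against 3020.1, 2659, 2083 and 2464 in WT mice, without overlap and lower by a log2 change of -0.50 ± 0.16 (adjusted p = 0.035). That call ended without any of 7 of the 8 libraries compared (all but WT 6w C), at adjusted p between 0.0545 and 0.125.

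Pmvk and Mvd are enzymes of the mevalonate steps, a kinase and the decarboxylase that makes isopentenyl diphosphate. Pmvk at 3 weeks held 411, 395, 534 and 448 normalized counts in NPC mice, against 303, 339, 226 and 356 in WT mice, without overlap (log2 change 0.56 ± 0.19, limma adjusted p = 0.0288). At 6 weeks it held 382, 570.2, 598 and 393 in NPC mice, against 328, 335, 289 and 229.6 in WT mice, also without overlap (0.70 ± 0.19, adjusted p = 0.00986). Its NPC values at 9 weeks were 607, 405 and 663, against WT values of 410.0, 368, 293 and 306, which overlapped (0.68 ± 0.20, adjusted p = 0.0171). These calls of Pmvk ended without NPC 3w C, WT 3w A or WT 3w C at 3 weeks (adjusted p 0.0593 to 0.120), without NPC 6w C at 6 weeks (0.0528), and without NPC 9w A, NPC 9w C, WT 9w C or WT 9w D at 9 weeks (0.0505 to 0.113). At 1 week the means were 577 ± 44.9 in NPC mice and 565 ± 57.3 in WT mice (SD, n = 4 each), with overlap.

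Mvd followed the same order of groups. It held 815, 846, 736 and 747 normalized counts in NPC mice at 3 weeks, against 525, 625, 566 and 568 in WT mice, without overlap (log2 change 0.46 ± 0.14, limma adjusted p = 0.0195, and 0.062 without WT 3w replicate A). The 6-week values were 749, 676, 886 and 757 in NPC mice, against 462, 665, 559.9 and 500.1 in WT mice, and every NPC library was above every WT library (0.49 ± 0.14, adjusted p = 0.0171). NPC libraries at 9 weeks held 738, 673 and 931, against 675, 572, 435 and 594 in WT libraries, the lowest NPC value lying just under the highest WT value (0.46 ± 0.15, adjusted p = 0.0354). The 6-week call ended without NPC 6w C, WT 6w A or WT 6w D (adjusted p 0.0542 to 0.0761) and the 9-week call without NPC 9w A, NPC 9w C, WT 9w B or WT 9w C (0.0565 to 0.213). At 1 week the means were 961 ± 57.7 in NPC mice and 808 ± 106 in WT mice (SD, n = 4 each).

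Other members of the sterol branch were called at 1 age. At 3 weeks these were Sc5d, a late desaturase of the sterol ring, and Stard4, which carries sterol between membranes. Sc5d averaged 695 ± 154 normalized counts in NPC mice and 444 ± 35.6 in WT mice (SD, n = 4 each), without overlap (log2 change 0.62 ± 0.16, limma adjusted p = 0.00487). Its highest value, 919, was that of NPC 3w replicate C. Stard4 averaged 87.4 ± 41.5 in NPC mice and 37.3 ± 10.5 in WT mice with overlap (1.13 ± 0.39, adjusted p = 0.0324), and that call ended without NPC 3w B, NPC 3w C, WT 3w A or WT 3w D (adjusted p 0.0528 to 0.151). At 9 weeks Hsd17b7, a keto-reductase of sterol synthesis, and Lss, which folds squalene epoxide into lanosterol, were called. Hsd17b7 averaged 322 ± 63.7 in NPC mice (n = 3) and 177 ± 46.4 in WT mice (n = 4, limma adjusted p = 0.0438). Lss averaged 509 ± 69.4 in NPC mice (n = 3) and 341 ± 43.6 in WT mice (n = 4, limma adjusted p = 0.0342). Neither overlapped between genotypes at 9 weeks, and either call ended without NPC 9w A, NPC 9w B, WT 9w A or WT 9w D, and that of Hsd17b7 also without WT 9w C (adjusted p between 0.0542 and 0.164). Insig2 and Scap, the escort of SREBP, were lower on the average over ages, by log2 changes of -0.33 ± 0.08 (limma adjusted p = 0.0018) and -0.19 ± 0.07 (adjusted p = 0.0337). The call of Scap ended without any of 7 libraries (NPC 1w A, 6w B or 9w A, WT 1w B, 3w A, 6w D or 9w C), at adjusted p between 0.051 and 0.063. Nsdhl, a sterol dehydrogenase, was called on the average over ages alone (log2 change 0.22 ± 0.08, adjusted p = 0.0241, and 0.0506 without NPC 9w B).

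Members with no genotype call in any of these comparisons were spread along the whole pathway. They were Acat2, which starts the pathway from acetyl-CoA, Hmgcs1, Mvk, Idi1, Fdps, Fdft1, Cyp51, Tm7sf2 and Ebp. Cyp51, the lanosterol demethylase, averaged 692 ± 138 normalized counts in NPC mice and 657 ± 118 in WT mice at 9 weeks (SD, n = 3 and n = 4), with a log2 change of 0.07 and a 95% interval of -0.31 to 0.45. Ebp and Tm7sf2, an isomerase and a reductase of the sterol ring, had log2 changes of -0.41 (interval -0.83 to 0.01) and -0.42 (-1.10 to 0.27) at 9 weeks, the lowest among the sterol enzymes. Hmgcs1, which makes HMG-CoA, was near the lower limit of these data in every group, between 0 and 19.6 normalized counts per library.

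The fatty acid branch held abundant and scarce transcripts. Fads1, a desaturase of long polyunsaturated fatty acids, held 6159.6, 7721 and 6616 normalized counts in NPC mice at 9 weeks, against 7948, 8333, 9124 and 8886 in WT mice. The NPC libraries were all lower, by a log2 change of -0.33 ± 0.10 (SE, limma adjusted p = 0.0187), and the call ended without NPC 9w A, NPC 9w C or WT 9w C (adjusted p 0.0573 to 0.144). Fads2, the desaturase of the step before, held 82.9, 148, 106 and 43.0 in NPC mice at 6 weeks, against 37.9, 38.4, 33.3 and 29.1 in WT mice. Every NPC library was higher (1.30 ± 0.42, adjusted p = 0.0315), but the call ended without any of 6 of these libraries (all but NPC 6w D and WT 6w B, adjusted p 0.0503 to 0.138). At 9 weeks its log2 change was 1.23, which was not called (adjusted p = 0.0543).

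Scd1, a stearoyl-CoA desaturase, was scarce and scattered. It held 29.3, 29.9, 72.8 and 67.0 normalized counts in NPC mice at 3 weeks, against 8.27, 8.53, 34.3 and 15.3 in WT mice, and 73.5, 247, 145 and 13.7 in NPC mice at 6 weeks, against 94.2, 21.2, 7.41 and 34.5 in WT mice. The groups overlapped at both ages and no single age was called. At 9 weeks NPC mice held 88.9, 44.6 and 41.04, against 23.5, 30.4, 7.94 and 22.6 in WT mice, without overlap (log2 change 1.47, adjusted p = 0.23). The average over ages was called (1.29 ± 0.39, adjusted p = 0.00872), and with the astrocyte score as a covariate it was 0.10 (adjusted p = 0.91).

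Scd2, the stearoyl-CoA desaturase with the larger values here, was not called at any age. In NPC mice at 6 weeks it held 12959.7, 12109.6, 13379 and 12286 normalized counts, against 14287, 14589.8, 12078 and 16265 in WT mice. NPC mice at 9 weeks held 9415, 13032 and 9573, against 9183, 11187, 13948 and 11453 in WT mice, a log2 change of -0.10 with a 95% interval of -0.42 to 0.21. Scd1 and Scd2 are close relatives, and how reads shared between them were counted is not given in the sources used here. Srebf1, the fatty acid regulator, was not called either, with 4633, 4112 and 3621 in NPC mice at 9 weeks, against 3639, 4116, 3945 and 3107 in WT mice. Its log2 change was 0.16 (interval -0.13 to 0.45). Acly, Acss2, Acaca, Fasn and Elovl6 were not called at any age. Fasn, fatty acid synthase, held 1457, 1053, 182 and 1557 in NPC mice at 3 weeks, against 2099.6, 1787, 1861 and 1023 in WT mice, and its log2 change of -1.01 was -0.29 without NPC 3w replicate C, the lowest library.

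**Figure D3:**
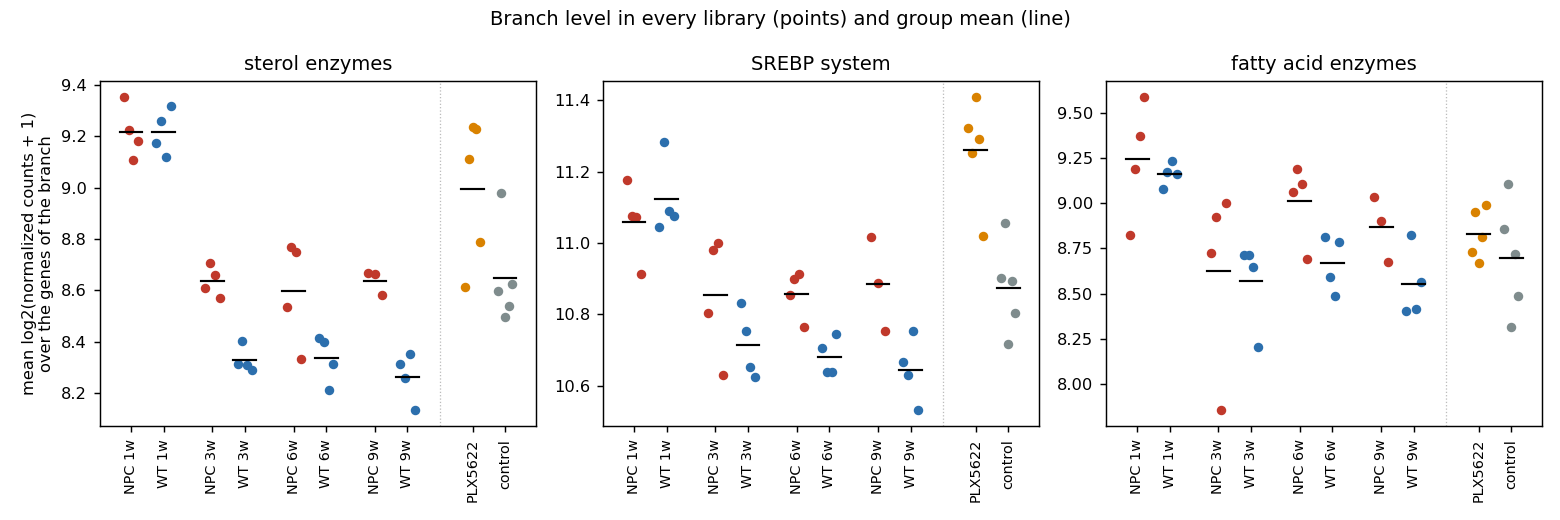
Mean log2(normalized count + 1) over the 17 sterol enzymes, the 5 SREBP system genes and the 9 fatty acid enzymes in every library (points), with group means (lines); the vertical axes do not start at 0. At 9 weeks the sterol mean was 8.58 to 8.67 in NPC mice and 8.13 to 8.35 in WT mice, and the fatty acid mean, 8.68 to 9.03 in NPC mice and 8.41 to 8.82 in WT mice, overlapped.

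Summed over the 17 sterol enzymes, where abundant transcripts weigh most, NPC libraries also reached the higher values from 3 weeks on. At 1 week the sum was 15259 to 17562 normalized counts in NPC mice, against 15202 to 16825 in WT mice. At 3 weeks it was 10102 to 13948 in NPC mice, against 8666 to 9418 in WT mice, without overlap, and at 6 weeks 9191 to 12620.1 in NPC mice, against 8373 to 10244 in WT mice, with overlap. The fatty acid sum was 28122 to 35221 in NPC mice at 9 weeks, against 28468 to 35140.2 in WT mice. The NPC libraries at 9 weeks, between 10182 and 10834, were again above the WT libraries, between 8559 and 9283. These sums are descriptions and were given no test.

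Sums of markers of other cells and of microglia moved with the genotype at the later ages. Border-associated macrophage markers summed to 1166 to 1678 normalized counts in NPC mice at 3 weeks, against 420 to 786 in WT mice. They were 1365 to 1555 in NPC mice at 6 weeks, against 484 to 650 in WT mice, and 1268 to 1939 in NPC mice at 9 weeks, against 311 to 646 in WT mice, so the sums did not overlap at any of these ages. Of the 8 markers, Lyve1 was at 0 in 18 of the 41 libraries and Cd163 in 6. The mean log2(normalized count + 1) over the 8, which weighs them alike, overlapped at each of these ages. It was 4.21 to 5.26 in NPC mice and 3.62 to 4.63 in WT mice at 3 weeks. In the same order it was 4.91 to 5.22 and 4.82 to 5.57 at 6 weeks, and 4.82 to 6.46 and 3.93 to 5.46 at 9 weeks. The 8 microglial markers summed to 1.43e+06 to 1.73e+06 in NPC mice at 3 weeks, against 1.79e+06 to 1.87e+06 in WT mice, and to 1.38e+06 to 1.58e+06 in NPC mice at 6 weeks, against 1.72e+06 to 2.32e+06 in WT mice. At 9 weeks they were 1.03e+06 to 1.30e+06 in NPC mice, against 1.61e+06 to 1.86e+06 in WT mice, all without overlap. The part of these 2 lists in the genotype results was not tested. The summed astrocyte and Bergmann glia markers were 9777 to 13219 normalized counts in NPC mice at 9 weeks, against 8785 to 9626 in WT mice, and 10211 to 16277 in NPC mice at 6 weeks, against 10365 to 11511 in WT mice. Slc1a3 alone held 1953 to 10205 of this sum per library, and of the defining markers Gdf10 was at 0 in 23 of the 41 libraries. Summed oligodendrocyte markers were 8445 to 17608 in NPC mice at 9 weeks, against 6764 to 7136 in WT mice, while Opalin was at 0 in 31 libraries and Cldn11 in 24. Mbp alone held 866 to 13017 of this sum per library. The oligodendrocyte score, a mean log2 over all 14 markers, overlapped at 9 weeks, at 4.84 to 5.31 in NPC mice and 4.46 to 5.08 in WT mice. In NPC 6w B and C it was 4.69 and 4.64, against 3.83 to 5.03 in WT mice at 6 weeks. The astrocyte score did not overlap at 9 weeks, at 6.87 to 7.56 in NPC mice and 5.67 to 6.37 in WT mice. It overlapped at 3 weeks (5.99 to 6.93 in NPC mice, 5.46 to 6.33 in WT mice). At 6 weeks it also overlapped (5.68 to 8.33 in NPC mice, 5.00 to 6.67 in WT mice). A fit with this score therefore cannot fully separate it from genotype, least of all at 9 weeks. With the astrocyte score as a covariate, 6 members were higher on average over the ages and 1 was lower, in place of 13 and 3. Those 6 were Sqle (adjusted p = 0.0004), Srebf2 (2.51e-05), Dhcr7 (0.000415), Mvd (0.0027), Insig1 (0.0208) and Pmvk (0.0306), by limma. Without both NPC 6w B and C, 1 of the 7 members called higher at 6 weeks was called, Srebf2 (0.72, adjusted p = 0.00185), and Sqle had 0.73 (adjusted p = 0.0677).

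Other genes of these pathways were called as well. Rdh11 and Ggps1, which makes geranylgeranyl diphosphate, were lower in NPC mice at 6 weeks, and Thrsp, a regulator of lipid synthesis, at 9 weeks. Rdh11 had a log2 change of -0.52 ± 0.15 (SE, limma adjusted p = 0.0142, and 0.0592 without WT 6w B) and Ggps1 one of -0.46 ± 0.16 (0.0489, and 0.0558 to 0.161 without any of 6 libraries). Thrsp had -1.07 ± 0.27 at 9 weeks (limma adjusted p = 0.0046). On the average over ages Aacs and Me1 were higher and Rdh11, Ggps1 and Thrsp lower. The averages of Aacs and Me1 lost their calls without any of 20 and 22 libraries (adjusted p 0.0506 to 0.1 and 0.0517 to 0.0779).

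The second question was how the genes changed with age within each genotype. Between 1 and 3 weeks some sterol enzymes fell in NPC mice and most in WT mice. In NPC mice 1 member was higher and 11 lower at 3 than at 1 week, against 12.2% and 12.8% of all genes, and in WT mice 1 was higher and 18 lower, against 15.7% and 18.4% (34.1% in either direction). Of the 17 sterol enzymes, 6 fell in NPC mice and 13 in WT mice, and 15 had a negative log2 change in NPC mice and all 17 in WT mice. These counts do not show that the genotypes differed. The difference of the 2 age changes was called for 0 of the 32 members in limma and edgeR and for 1 in DESeq2 (Sc5d). In limma it was called positive for 0.861% of all genes and negative for 0.199% (1.06% in either direction). There were 4 members at an unadjusted limma p under 0.05, where 2525 of the 14046 genes tested were.

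Sqle showed the largest fall among the sterol enzymes. It held 383, 391, 305 and 361 normalized counts at 3 weeks in NPC mice, against 2110.3, 1736, 1869 and 1607 at 1 week, a log2 change of -2.34 ± 0.20 (SE, limma adjusted p = 3.55e-10). In WT mice it held 366, 287, 286 and 256 at 3 weeks, against 1409, 1710.0, 1537 and 1929 at 1 week (-2.46 ± 0.20, adjusted p = 6.69e-11). Every 3-week library was below every 1-week library of its genotype. Cyp51 held 731, 1145, 543 and 736 in NPC mice at 3 weeks, against 2348, 1982, 2118 and 1717 at 1 week (-1.41 ± 0.17, adjusted p = 3.39e-07). WT mice held 810.5, 836, 840.3 and 919 at 3 weeks, against 2399.6, 2119.6, 2335 and 2149 at 1 week (-1.40 ± 0.17, adjusted p = 2.57e-07). Srebf2 fell by 0.91 in NPC mice (adjusted p = 8.85e-07) and by 0.98 in WT mice (adjusted p = 1.59e-07) on the log2 scale.

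Other enzymes of the branch fell in both genotypes as well. Fdps, which builds farnesyl diphosphate, averaged 902 ± 77.5 normalized counts at 3 weeks and 1595 ± 169 at 1 week in NPC mice, and 829.9 ± 81.0 at 3 weeks and 1760.1 ± 287 at 1 week in WT mice (SD, n = 4 each). Fdft1, squalene synthase, fell by 1.01 in NPC mice (limma adjusted p = 0.000569) and by 1.30 in WT mice (adjusted p = 1.8e-05) on the log2 scale. Acat2 and Mvk were also called lower in both, and the call of Acat2 in NPC mice ended without any of 6 of the 8 libraries (adjusted p 0.0539 to 0.155) and that of Mvk in WT mice without WT 1w A, WT 3w A or WT 3w D (0.0522 to 0.0568). Called lower in WT mice alone were Idi1, Pmvk, Mvd, Tm7sf2, Hsd17b7, Sc5d, Dhcr7, Stard4 and Insig1, with log2 changes between -1.74 for Stard4 and -0.49 for Mvd. That of Tm7sf2 ended without any of 6 libraries (adjusted p 0.0507 to 0.105). Dhcr7, for example, averaged 2029.8 ± 268 at 3 weeks and 2233 ± 156 at 1 week in NPC mice, and 1240.2 ± 55.5 at 3 weeks and 1843 ± 63.4 at 1 week in WT mice.

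**Figure D4:**
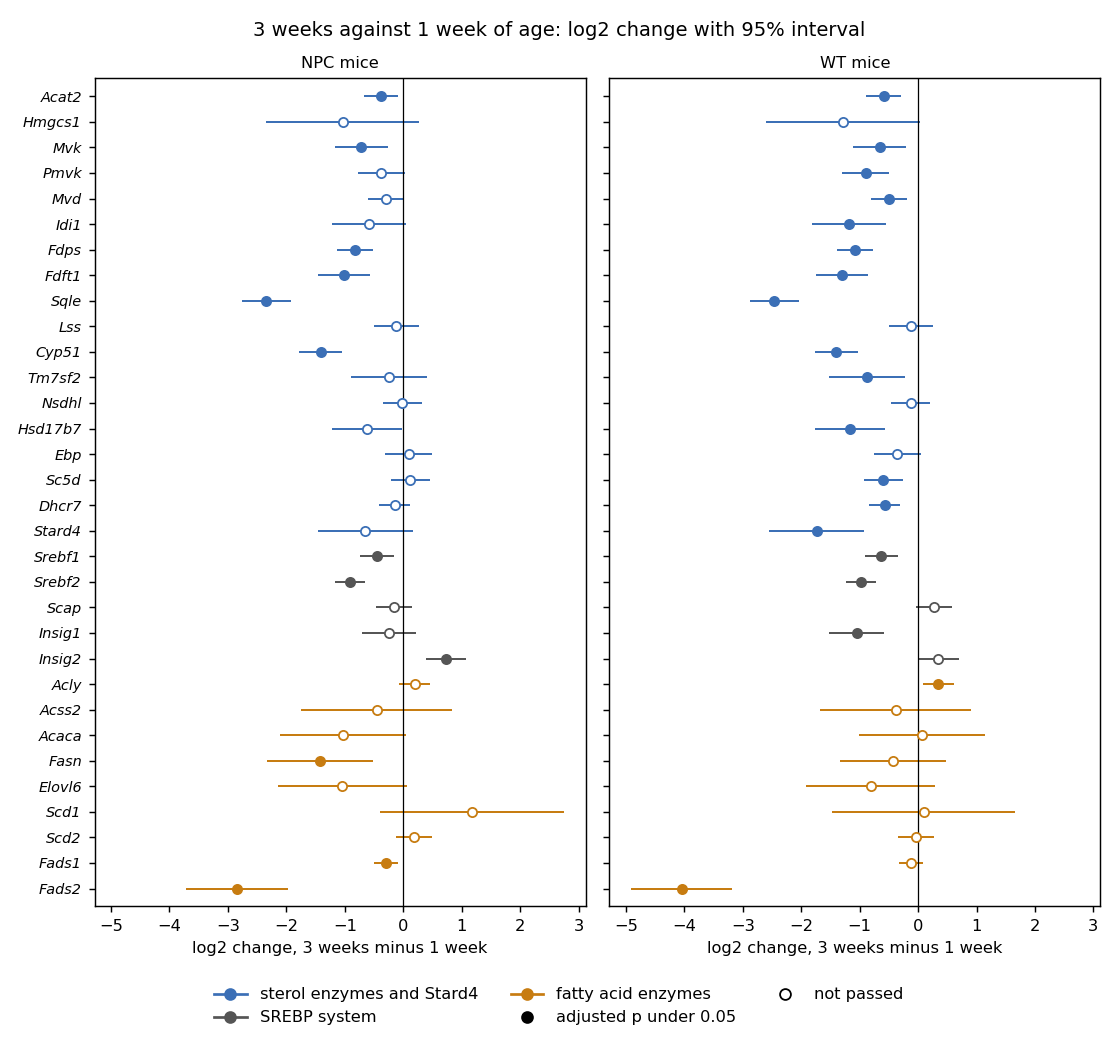
Log2 change of each of the 32 genes at 3 weeks minus 1 week in NPC mice (left) and WT mice (right), with 95% intervals; filled points passed an adjusted p under 0.05. Sqle lies at -2.34 and -2.46 and Fads2 at -2.84 and -4.05.

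The fatty acid branch did not move as 1 group with age. Fads2 fell most, with 34.4, 65.1, 31.2 and 56.6 normalized counts at 3 weeks in NPC mice, against 212, 352, 511 and 297 at 1 week (log2 change -2.84 ± 0.42, limma adjusted p = 6.62e-06). WT mice held 36.2, 52.9, 21.8 and 15.3 at 3 weeks, against 376, 459, 514 and 626 at 1 week (-4.05 ± 0.42, adjusted p = 1.01e-08), and neither genotype had overlap between the ages. Scd2 and Srebf1 differed from each other: Scd2 averaged 13624 ± 2461 at 3 weeks and 13847 ± 1875 at 1 week in WT mice and was not called, while Srebf1 fell by 0.45 in NPC mice (adjusted p = 0.0115) and by 0.63 in WT mice (adjusted p = 0.000388). Acly, which makes cytosolic acetyl-CoA, rose in WT mice (0.34 ± 0.12, adjusted p = 0.0273, and 0.0516 to 0.124 without WT 1w C, WT 1w D, WT 3w A or WT 3w B). Fasn and Fads1 fell in NPC mice. The Fasn call ended without NPC 1w C, NPC 1w D or NPC 3w C (adjusted p 0.0524 to 0.086), that of Fads1 without NPC 1w A or NPC 1w C (0.0533 to 0.0578), and that of Srebf1 in NPC mice without NPC 1w C (0.054). Insig2 rose in NPC mice (0.73 ± 0.16, adjusted p = 0.00117).

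Marker sums of other cells differed between these ages in both genotypes. Border-associated macrophage markers were 1166 to 1678 normalized counts at 3 weeks and 7514 to 8659 at 1 week in NPC mice, and 420 to 786 at 3 weeks and 4499 to 9247 at 1 week in WT mice. Astrocyte markers were 9521 to 11587 at 3 weeks and 3094 to 4659 at 1 week in NPC mice, and 9536 to 12228 at 3 weeks and 2845 to 4719 at 1 week in WT mice. With the astrocyte score as a covariate 6 sterol enzymes fell in NPC mice and 13 in WT mice, and with the oligodendrocyte score 4 and 8. The astrocyte score overlapped between the ages, at 5.99 to 6.93 at 3 weeks and 5.65 to 7.42 at 1 week in NPC mice. In WT mice it was 5.46 to 6.33 at 3 weeks and 5.56 to 6.23 at 1 week. That fit therefore does not adjust for the difference in the astrocyte sums. The oligodendrocyte score did not overlap between the ages, at 3.91 to 4.60 at 3 weeks and 4.62 to 7.21 at 1 week in NPC mice. In WT mice it was 4.36 to 4.96 at 3 weeks and 5.67 to 7.90 at 1 week. The fit with the oligodendrocyte score therefore cannot fully separate it from age. The parts of border-associated macrophages, of neurons and of the microglial markers in these falls were not tested.

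After 3 weeks few members changed with age. Between 9 and 3 weeks 0 members were higher and 1 lower in NPC mice, Fads1 (log2 change -0.55 ± 0.10, limma adjusted p = 0.00119), against 2.31% and 2.11% of all genes (4.41% in either direction). In WT mice 0 were higher and 1 lower, Sqle (-0.85 ± 0.20, adjusted p = 0.04), against 0.228% and 0.249% (0.477% in either direction). Sqle in WT mice averaged 171 ± 53.0 at 9 weeks and 299 ± 47.1 at 3 weeks (SD, n = 4 each), and its call ended without any of 6 of the 8 libraries (all but WT 3w D and WT 9w C, adjusted p 0.0989 to 0.187). In NPC mice Sqle averaged 506 ± 106 at 9 weeks (n = 3) and 360.2 ± 38.5 at 3 weeks (n = 4), which was not called.

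Among other genes of these pathways, Tmem97 fell between 1 and 3 weeks in both genotypes and Thrsp, Lpin1, Ggps1 and Mbtps2 rose, while Pcyt2 and Msmo1 were called lower in WT mice. Thrsp rose by 2.92 in NPC mice (adjusted p = 3.69e-10) and by 2.16 in WT mice (adjusted p = 6.81e-08) on the log2 scale by limma. The calls of Lpin1 in NPC mice and of Mbtps2 in WT mice ended without any of 6 and 4 libraries (adjusted p 0.0561 to 0.177 and 0.0509 to 0.0872).

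The third question was what PLX5622 did in NPC mice at 9 weeks. Of the 31 members that passed the filter, 2 were higher (Cyp51 and Insig1) and 1 was lower (Scd2) in treated than in control mice, against 0.637% and 0.311% of the 12877 genes tested (0.947% in either direction). A further 8 members had an unadjusted p under 0.05 and were not called. In all, 11 of the 31 members were at an unadjusted p under 0.05, against 1931 of the 12877 genes. Of 16 sterol enzymes tested, 13 had a positive log2 change (median 0.27, against 0.01 for all genes), and Hmgcs1 was too low to be tested.

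Cyp51 held 1209.8, 2163, 2079, 1634 and 1002 normalized counts in PLX5622 mice, against 872, 898, 602, 697 and 768 in control mice. Every treated library was above every control library, with a 2.04-fold difference (95% interval 1.49 to 2.79, limma adjusted p = 0.0417). Insig1 held 1248, 843, 1228, 771 and 702 in PLX5622 mice, against 524, 606, 329.7, 514 and 408 in control mice, likewise without overlap (log2 change 1.00 ± 0.21, adjusted p = 0.0451). Scd2 was the opposite, with 7833, 6343, 5516, 6598 and 8529.9 in PLX5622 mice, against 15213, 11626, 10784, 11007 and 13016 in control mice. All treated libraries were below all control libraries, by a log2 change of -0.83 ± 0.14 (adjusted p = 0.0166). The call of Cyp51 ended without any of 7 of the 10 libraries (all but PLX5622 1 and 5 and control 1, adjusted p 0.0728 to 0.12), that of Insig1 without any of 9 (all but PLX5622 5, 0.051 to 0.14) and that of Scd2 without PLX5622 4 or control 5 (0.0517 to 0.0627).

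Sqle and Srebf2 varied widely among the treated mice and were not called. Sqle held 558, 2127, 1414, 2429 and 668 normalized counts in PLX5622 mice, against 381, 933, 371, 346 and 393 in control mice. Control replicate 2 lay above 2 of the 5 treated libraries, and the log2 change was 1.45 with a 95% interval of 0.54 to 2.35 (limma adjusted p = 0.127). Srebf2 held 3147, 4135, 5127, 4773 and 2611 in PLX5622 mice, against 2769, 3294, 1841, 1932 and 1977 in control mice (log2 change 0.74, interval 0.29 to 1.19, adjusted p = 0.12). DESeq2 on recovered reads called both (adjusted p = 0.00439 and 0.0201). Scd1 overlapped, with 72.4, 39.9, 43.9, 9.34 and 85.9 in PLX5622 mice, against 68.3, 54.4, 23.9, 23.7 and 14.0 in control mice. Srebf1 averaged 4521 ± 651 in PLX5622 mice and 4040.4 ± 277 in control mice (SD, n = 5 each), also with overlap. Dhcr7, Mvd and Pmvk, higher in NPC than in WT mice at 3 ages, were not called here, with log2 changes of 0.44 (interval 0.12 to 0.77), -0.15 (-0.47 to 0.17) and 0.27 (-0.08 to 0.62).

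**Figure D5:**
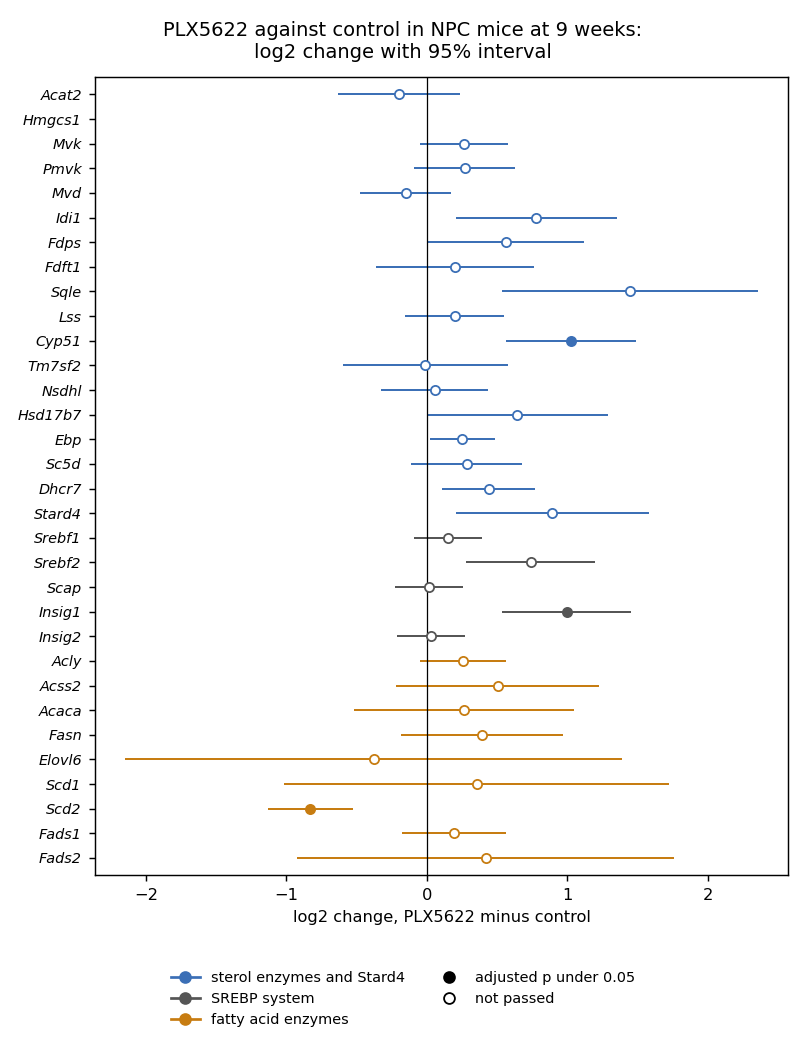
Log2 change of each tested member in PLX5622 minus control NPC mice at 9 weeks, with 95% intervals; filled points passed an adjusted p under 0.05. Cyp51 at 1.03 and Insig1 at 1.00 lie to the right of 0 and Scd2 at -0.83 to the left.

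Markers of other cells differed in this arm too. Border-associated macrophage markers summed to 2623 to 4889 normalized counts in PLX5622 mice, against 1368 to 1763 in control mice, and astrocyte markers to 5750 to 10851 in PLX5622 mice, against 9463 to 11703 in control mice. The mean log2(normalized count + 1) over the border-associated macrophage markers overlapped, at 5.30 to 6.23 in PLX5622 mice and 4.97 to 5.73 in control mice. Oligodendrocyte markers were 7002 to 15394 in PLX5622 mice and 6925 to 10008 in control mice. Monocyte and neutrophil markers were 8173, 5091, 116245, 6597 and 717 in PLX5622 mice, against 1096, 6534, 394, 2290.5 and 357 in control mice, so control replicate 2 lay among the treated libraries and PLX5622 replicate 5 among the controls. Without PLX5622 replicate 3, the library with the highest sum of these markers, Scd2 had -0.75 (limma adjusted p = 0.0391), Cyp51 0.92 (0.0887) and Insig1 0.90 (0.0956). The astrocyte score was 6.31 to 7.63 in PLX5622 mice and 5.45 to 6.86 in control mice. It thus leaned higher with PLX5622, with overlap, where the sum leaned lower. With this score as a covariate 0 members were called in limma, and Scd2 had -0.86 (adjusted p = 0.0534). The part of border-associated macrophages was not tested, nor that of monocytes and neutrophils beyond this library. The control mice of this arm did not differ from untreated NPC mice of the same age beyond the threshold, with 0 of 32 members called by limma, edgeR and DESeq2, against 0% of the 14312 genes tested in limma. No member was at an unadjusted limma p under 0.05, where 598 of these genes were.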

How the data were processed

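RNA-seq was made from sorted cerebellar microglia in 41 libraries of 10 groups. The authors deposited 1 table of normalized counts per gene, a signal value scaled by size factors. The submitters' processing notes name FastQC 0.11.4, STAR 2.5.1b, DESeq2 and mm9, and the annotation and the counting tool are not given in the sources used here. Whole reads were recovered from the steps of the values in 40 libraries (100% whole within a tolerance of 1e-06), and not in WT 9w replicate C, which the count tests leave out. Because the deposited values are normalized, the main test was limma 3.58.1 in R 4.3.3 on log2(value + 1), with trend and robust moderation, two-sided, adjusted by Benjamini-Hochberg over all genes that reached 10 normalized counts in 3 or more libraries of the fit. It used 1 fit of the 31 time-course libraries, 1 of the 10 treatment libraries and 1 of all 41 for control against untreated mice. The script was tested on simulated data.

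Some other pathway genes are not reported here. The members and lists were chosen with earlier results of these data known. All members are named, and a value in every library is given for members called in NPC against WT mice at 2 or more ages or with PLX5622, and for Srebf1, Srebf2, Scd1 and Scd2. Alternatives were another pseudocount, no filter, rescaling, edgeR 4.0.16, DESeq2 1.42.0, array weights, marker scores as covariates, omitted libraries, smaller fits and a replicate block. Each marker score is the mean log2(normalized count + 1) over its list of markers. At 1 week same-lettered libraries deviated together in all 4 pairs (correlation 0.155 to 0.193). The 1-week values reported come from the main fit, which does not use the pairs. As an alternative, the fit with a replicate block gave 0 calls of members at 1 week as well, and 140 of all genes in place of 204. Intervals are at 95%.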

Additional observations from a re-analysis of the deposited data

Results flagged for a closer look

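Among 288 gene and group combinations of 4 or 5 libraries, 17 held 1 library that stood apart from the others (5.903%), and chance flags about 1 in 20. NPC 3w replicate C stood apart in Tm7sf2 at 487 normalized counts (139.8 to 190.3 in the others), Scap at 2111 (3417 to 3534), Lss at 335 (434 to 452) and Acss2 at 5.20 (74.6 to 88.6). WT 6w replicate C stood apart in Acat2 at 528 (667 to 689), Fdps at 712 (953 to 993), Hmgcs1 at 3.70 (5.30 to 5.41) and Tm7sf2 at 238 (107 to 118). WT 6w replicate B was high in Sqle at 266 (212 to 214) and in Fads1 at 10841 (9312 to 9468). NPC 1w replicate A was high in Hsd17b7 at 725 (259 to 288) and in Insig2 at 1639 (1136 to 1167). In WT 1w mice, replicate D was high in Dhcr7 at 1937 (1801 to 1819) and replicate A low in Insig1 at 531 (686 to 703). In WT 3w mice, replicate C was low in Fdft1 at 314 (339.6 to 344) and high in Scd2 at 17299 (12149 to 12705). NPC control replicate 2 held 933 of Sqle (346 to 393 in the others).

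The genotype effect on Sqle was larger at 9 than at 3 weeks by 1.32 on the log2 scale, by the test of that difference (limma adjusted p = 0.0333).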

How the results depend on the processing

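Of 116 called results on single genes, 0 changed direction in 2767 values under alternatives, 352 of those values no longer passed the threshold, and 51 results lost no call. These results pool members with other pathway genes and with Npc1, so they do not describe the members alone. With PLX5622 the call of Scd2 was lost in 3 of 19 alternatives and those of Cyp51 and Insig1 in 11 of 19 each. The counts of members that moved were as follows, and the cause was not tested. With the astrocyte score as a covariate, 3, 2 and 2 were higher in NPC mice at 3, 6 and 9 weeks and 6 on average (6, 7, 8 and 13 without it), 0 lower at 6 and at 9 weeks, 1 lower on average, 2 lower in NPC mice at 9 against 3 weeks, and 0 higher and 0 lower with PLX5622. With the oligodendrocyte score, 0 had a larger genotype effect at 9 weeks, 2 (NPC) and 0 (WT) were higher at 3 against 1 week, and 1 was higher with PLX5622. Rescaling gave 2 lower at 3 weeks, 5 higher and 3 lower at 9 weeks, 0 higher in WT mice at 3 against 1 week, 0 lower at 9 against 3 weeks, and 1 higher with PLX5622. Without the filter, 0 were lower in WT mice at 9 against 3 weeks and 0 higher with PLX5622. Array weights gave 1, 2 and 4 lower at 1, 6 and 9 weeks, 2 for the difference of 9 and 3 weeks, 2 (NPC) and 3 (WT) higher at 3 against 1 week, 3 lower in WT mice at 9 against 3 weeks, and 4 higher with PLX5622. edgeR gave 5 higher and 0 lower at 9 weeks. DESeq2 gave 1 and 2 higher for the differences of 3 and 1 and of 9 and 3 weeks, 2 lower in WT mice at 9 against 3 weeks, and 4 higher with PLX5622. Fits of only the groups compared gave 1 higher at 3 weeks, 4 lower at 9 weeks, 0 for the difference of 9 and 3 weeks, 0 higher and 7 lower in NPC mice at 3 against 1 week, 0 lower at 9 against 3 weeks, and 2 higher in WT mice at 3 against 1 week. Without both NPC 6w B and C, 1 was higher and 0 lower at 6 weeks.

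Leaving out 1 library gave these ranges of higher and lower members: 3 to 7 and 0 to 2 at 3 weeks, 4 to 9 and 0 to 1 at 6 weeks, 3 to 9 and 0 to 2 at 9 weeks, and 12 to 15 and 2 to 4 on average. At 3 against 1 week they were 1 to 2 and 7 to 11 in NPC mice and 0 to 3 and 16 to 19 in WT mice. At 9 against 3 weeks 1 to 2 were lower in NPC mice and 0 to 2 in WT mice. The differences of 3 and 1 and of 9 and 3 weeks each had 0 to 1 higher, and PLX5622 had 0 to 4 higher and 0 to 1 lower. The lowest counts came without NPC 3w C or WT 3w A at 3 weeks (3 higher each), NPC 6w C at 6 weeks (4 higher), NPC 9w A at 9 weeks (3 higher, and 5 without WT 9w D) and NPC 1w C (7 lower at 3 against 1 week).

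Outside the 1-week comparison not every pair of same-labelled libraries correlated above 0.1, and no main fit took the labels as pairs. For PLX5622 and control the correlations were 0.184, 0.107, -0.148, 0.230 and 0.267 in pairs 1 to 5, so 4 of 5 pairs were above 0.1 and for 3 of 5 numbers the best match was the same number. A replicate block gave 1 lower at 3 weeks and 2 higher and 0 lower at 9 weeks, and in the PLX5622 comparison 3 higher and 416 of all genes in place of 122. No paired analysis was possible because control and untreated NPC mice carry different kinds of replicate labels, for that comparison.

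Rescaling moved the median log2 change of all genes to -0.17 (from -0.04) at 3 weeks, to -0.28 (from -0.07) in NPC mice and -0.11 (from -0.01) in WT mice at 3 against 1 week, and to 0.21 (from 0.10) in NPC mice at 9 against 3 weeks. Higher and lower genes were then 1503 and 2438 at 3 weeks (2006 and 1771 as deposited), 1421 and 1491 at 9 weeks (1574 and 1091), 2574 and 3787 on average (3123 and 2961), 1033 and 3125 in NPC mice at 3 against 1 week (1710 and 1799), 1577 and 3289 in WT mice (2203 and 2583), 436 and 222 in NPC mice at 9 against 3 weeks (324 and 296) and 62 and 28 in WT mice (32 and 35). Over all genes, 3777 were called at 3 weeks but 769 in the smaller fit and 1794 with the astrocyte score. The 2665 at 9 weeks became 4429 in the smaller fit, 4790 with array weights and 1561 with the astrocyte score, and the 6084 on average became 2546 with that score. The 2143 at 6 weeks became 1078 with that score and 872 without NPC 6w B and C. The 204 at 1 week became 528 with array weights and 374 in DESeq2, and the 122 with PLX5622 became 605 in DESeq2, 435 with array weights and 48 with the astrocyte score. For Hmgcs1 and Scd1, low values limit what these depths can show.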
